A study of Mus musculus with 36 samples.

Results

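Lifr, Il6st, Jak1, Stat3, Socs3, Bcl3 and Junb encode parts of the pathway by which the cytokine LIF acts on mouse embryonic stem cells (mESCs), and they were followed through 9 days of mESC differentiation. They were chosen by symbol, with earlier results of these data known. Each of the 7 has exactly 1 row among the 25965 genes of the deposited table, and all 7 passed the filter on low values that left 14612 genes for testing. In the step from day 3 to day 4, Lifr, Il6st, Stat3, Socs3 and Bcl3 fell together, by 2.49-fold for Il6st to 11.9-fold for Socs3, and in all 4 replicates. Junb and Jak1 did not fall at that step by this test and stood 12.9-fold and 3.25-fold higher on day 8 than on day 0.

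LIF binds a receptor made of LIFR and gp130, the product of Il6st. Janus kinases such as JAK1 are bound to the inner side of the receptor, and on ligand binding they phosphorylate it and the transcription factor STAT3. Phosphorylated STAT3 enters the nucleus and turns on its targets, among them Socs3, whose product blocks the receptor and the kinases and so limits the signal. In naive mESCs, LIF signalling through STAT3 helps to hold the undifferentiated state and is a standard part of the medium.

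The cells were Xmas mESCs, female C57/Bl6 lines derived so that each X chromosome is marked at Hprt by its own fluorescent reporter, GFP or mCherry. Whether the libraries labelled single hold both reporter alleles is not stated in the labels. Day 0 cells were kept in 2i medium (inhibitors of MEK and GSK3) with LIF, and differentiation was started by weaning the cells over 3 days into serum medium without LIF, with no directing factor. Each day has 4 libraries: replicate 1 is line X14 with the label double, replicate 2 X14 single, replicate 3 X18 double and replicate 4 X18 single. The labels do not explain the words double and single, and they are used here only as names. The replicates of a day thus come from 2 lines. The paper's legend for this time course gives 4 independent replicates. The labels do not say whether the libraries of 1 line came from separate cultures. P-values therefore measure the spread between these libraries.

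Libraries held between 612740 and 2445826 reads in genes, with a median of 1297944, and 3 reads correspond to 1.04 to 3.90 RPM (reads per 1000000 reads). Levels are given below in RPKM, which also divides by the length of the gene's exons in kilobases, so that genes can be compared. On day 0 the 6 markers of pluripotent cells (Pou5f1, Sox2, Nanog, Zfp42, Esrrb and Klf2) summed to 3470 to 4700 RPM, and on day 8 to 288 to 714 RPM. The day 0 libraries stood apart in 2 ways. Over all genes tested, the median deviation from the day 0 mean was 0.24 on the log2 scale in replicate 1 and -0.23 in replicate 3, and it reached at most 0.12 either way in the libraries of days 1 to 8. The X14 day 0 libraries labelled double and single also deviated with the X14 libraries of the other label on later days (median correlation 0.197). They did not deviate with those of their own label (-0.0741). Comparisons between days that pair no libraries would stay as they are if only the labels were exchanged, which was not tested. Calls against day 0 changed when the X14 day 0 libraries were left out, as given below. The pattern bears on the comparison of labels, on fits by replicate number and on counts of replicates against day 0.

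**Figure D1:**
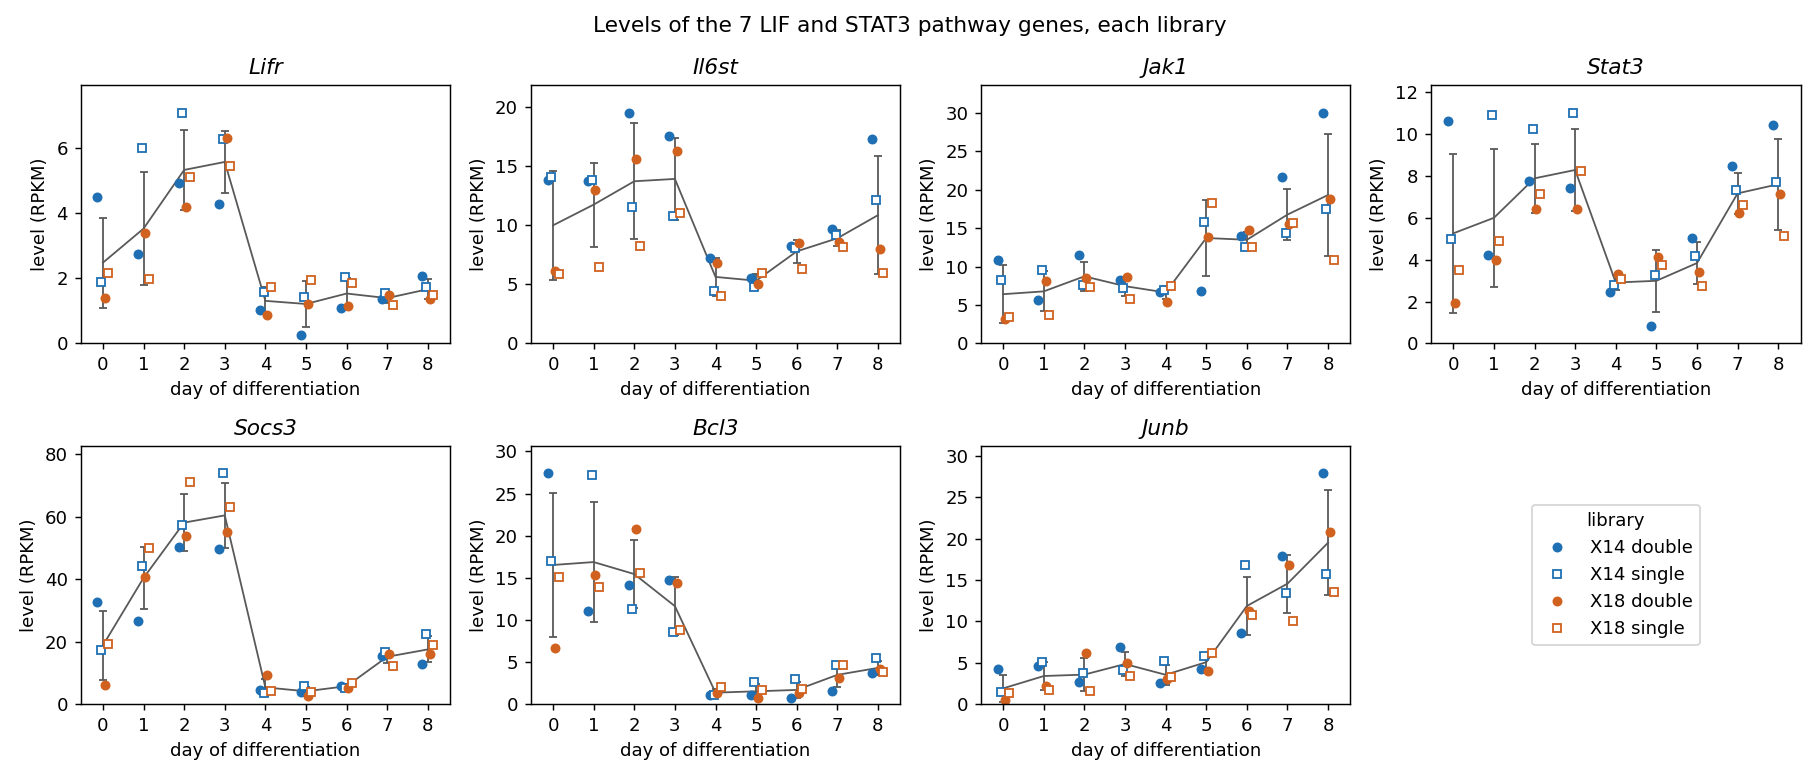
Level in RPKM (vertical axes, linear, from 0) of the 7 genes in each of the 36 libraries against the day of differentiation. Points are libraries by line (colour) and label (filled or open), and the grey line gives the mean of 4 libraries with its SD. Lifr, Il6st, Stat3, Socs3 and Bcl3 drop between day 3 and day 4, while Jak1 and Junb are highest on days 7 and 8.

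The receptor genes were measured first. Lifr lies at mm10 chr15:7129559-7197489 on the plus strand, and no exon of another gene overlaps its exons in the GENCODE M21 annotation. Its level on day 0 was 4.48, 1.88, 1.39 and 2.15 RPKM in replicates 1 to 4. On day 3 it was 4.26, 6.25, 6.30 and 5.43 RPKM. These 2 days overlapped only through replicate 1 of day 0, which lay above replicate 1 of day 3. On day 4 Lifr was at 1.04, 1.57, 0.872 and 1.74 RPKM, so that every day 4 library lay below every day 3 library. The fall from day 3 to day 4 was -2.13 on the log2 scale (SE 0.45, 4.38-fold, limma adjusted p = 0.00184). The rise from day 0 to day 3 was 1.29 (SE 0.45, adjusted p = 0.0489), close to the limit, and 9 of 17 alternatives lost this call. Among them were no filter on low values (adjusted p = 0.068), the filter on deposited values (0.052), 75th percentile scaling (0.053) and quantile normalization (1.05, adjusted p = 0.11). In the order of the means, day 3 (5.56 ± 0.956 RPKM, SD, n = 4) and day 2 (5.32 ± 1.24) came first and did not differ beyond their spread, and day 2 stood above day 1 (3.52 ± 1.74) by more than the larger SD. Below that no neighbours in the order differed beyond their spread, down to day 5 with 1.21 ± 0.711 RPKM, where replicate 1 held 2 Lifr reads. From day 4 on, Lifr stayed near its low level, with 1.66 ± 0.311 RPKM on day 8, and the difference between day 8 and day 4 was 0.39 (SE 0.45, adjusted p = 0.55).

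Il6st lies at chr13:112475008-112506860 on the plus strand. The exon length behind its values is 5207 bases, while the exons of GENCODE M21 within the same interval cover 7322 bases, so its RPKM depends on the gene model more than for the others. Its level on day 3 was 17.5, 10.8, 16.3 and 11.0 RPKM, and on day 4 it was 7.23, 4.47, 6.81 and 3.98 RPKM. The days did not overlap, and on both of them the libraries labelled double were the higher ones. The step was -1.32 (SE 0.32, 2.49-fold, limma adjusted p = 0.00877). The drop was not maintained: the mean was 5.30 ± 0.525 RPKM on day 5, and the 3 days after it had 7.78 ± 0.996, 8.89 ± 0.689 and 10.9 ± 5.03 RPKM. In the order of the means, day 7 stood above day 6 and day 6 above day 4 by more than the larger SD, whereas days 3, 2, 1, 8, 0 and 7, in this order, did not differ from their neighbours beyond the spread. Day 8 differed from day 4 by 0.88 (SE 0.32, adjusted p = 0.034), short of the 2-fold minimum used for calls, and from day 0 by 0.13 (SE 0.32, adjusted p = 0.778).

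At the kinase, the course was another one. Jak1 (chr4:101152367-101265282, minus strand) shares 4 exon bases with Raver2 on the opposite strand. On day 3 it was at 8.21, 7.18, 8.61 and 5.80 RPKM and on day 4 at 6.70, 6.98, 5.38 and 7.45 RPKM. The 2 days overlapped, and the step was -0.16 (SE 0.34, limma adjusted p = 0.945). On day 5 the values were 6.83, 15.8, 13.9 and 18.3 RPKM, with replicate 1, the shallowest library of the series, at the level of day 4 and the other 3 above it. This step of 0.97 (SE 0.34, adjusted p = 0.0464) fell just short of the 2-fold minimum. On day 8 Jak1 reached 30.0, 17.5, 18.8 and 10.9 RPKM, against 10.8, 8.27, 3.13 and 3.43 RPKM on day 0. The difference was 1.70 (SE 0.34, 3.25-fold, adjusted p = 1.2e-04), and the lowest day 8 library lay only just above the highest day 0 library. In the order of the means, days 8, 7, 5 and 6 (19.3 ± 7.95 to 13.5 ± 1.05 RPKM) came first without a gap beyond the spread, day 6 stood clear of day 2 (8.72 ± 1.90), and days 2, 3, 1, 4 and 0 followed without a further gap.

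Stat3 (chr11:100885098-100939540, minus strand) overlaps Stat5a on the opposite strand by 72 of its 9527 exon bases. Since it is not stated whether reads were counted by strand, reads in shared bases cannot be told apart. Stat5a had a mean of 3.03 to 4.78 RPM on days 0, 3, 4 and 8. Stat3 was at 10.6, 4.96, 1.94 and 3.49 RPKM on day 0, the widest spread of its days. On day 3 it was at 7.42, 11.0, 6.41 and 8.24 RPKM and on day 4 at 2.47, 2.78, 3.31 and 3.06 RPKM. The day 4 libraries lay close together and all below day 3, a step of -1.49 (SE 0.42, 2.80-fold, limma adjusted p = 0.0246). Stat3 then returned to its earlier level: day 6 had 3.83 ± 0.993 RPKM, day 7 had 7.15 ± 0.981 and day 8 had 7.58 ± 2.16, against 8.26 ± 1.96 on day 3. All 4 libraries of day 7 lay above all 4 of day 6, but this step of 0.93 (SE 0.42, adjusted p = 0.35) did not pass. Day 8 was above day 4 by 1.35 (SE 0.42, adjusted p = 0.012), a call that was lost without replicate 2 of every day (1.31, adjusted p = 0.061). It differed from day 0 by 0.76 (SE 0.42, adjusted p = 0.136), a difference that was called without replicate 1 of every day (1.02, adjusted p = 0.022) and without the X14 day 0 libraries (1.5, adjusted p = 0.0068). In the order of the means, with day 3 the highest and day 4 the lowest, no neighbours differed beyond their spread.

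Socs3, the feedback inhibitor, was the most abundant of the 7 genes per length at its peak, and the step to day 4 was widest in it. It lies at chr11:117966079-117970047 on the minus strand with no overlapping exon. On day 0 it was at 32.8, 17.3, 6.04 and 19.2 RPKM. On day 2 it was at 50.4, 57.3, 53.7 and 71.2 RPKM, and on day 3 at 49.8, 73.9, 55.0 and 63.1 RPKM. Every library of days 2 and 3 lay above every library of day 0, so Socs3 rose while the cells were being weaned, by 1.85 (SE 0.33, limma adjusted p = 0.00118) on day 2 and 1.90 (SE 0.33, 3.73-fold, adjusted p = 1.7e-04) on day 3. The call of day 2 was lost without replicate 4 of every day (adjusted p = 0.068) and with only the 2 days fitted (0.14). On day 4 the values were 4.42, 3.58, 9.35 and 4.27 RPKM, from 16 to 48 reads a library. The step was -3.58 (SE 0.33, 11.9-fold, adjusted p = 2.8e-09), and day 4 also lay below day 0, at -1.68 (SE 0.33, adjusted p = 2.4e-04). Socs3 was low on days 4, 5 and 6 (5.40 ± 2.66, 4.15 ± 1.39 and 5.78 ± 0.791 RPKM). In the order of their means (days 6, 4 and 5), neighbours did not differ beyond their spread. Then Socs3 rose again within a day, from 5.87, 5.12, 5.26 and 6.86 RPKM on day 6 to 15.6, 16.8, 16.0 and 12.4 RPKM on day 7. This step of 1.40 (SE 0.33, 2.63-fold, adjusted p = 0.0251) was the only one among the 7 genes to pass between day 4 and day 8, where 0.472% of all genes tested were called higher. Leaving out the replicate 1, 2 or 4 libraries of every day lost that call, with adjusted p of 0.065, 0.19 and 0.19, as did voom (0.051). Day 8 (17.5 ± 4.17 RPKM) was again within the spread of day 0 (18.8 ± 11.0), and the difference of 0.10 (SE 0.33, adjusted p = 0.833) turned negative under 75th percentile scaling, quantile normalization and voom.

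STAT3 binds DNA at sites of the form TTCNNNGAA, where N is any base and which reads the same on both strands. In windows of 250 bases before to 50 bases after the start of a RefSeq transcript (assembly GRCm38.p6), a match was present in 8.30% of 32851 windows. All 7 genes have a window, 8 windows in all, which is too few for a comparison with that share. The only match among them was in Socs3. It lies at chr11:117969512-117969520, within Socs3 but in no exon by GENCODE M21 (intronic), beginning 154 bases before the RefSeq start. It is shown here with the bases around it, at chr11:117969501-117969530, read on the minus strand from 5′ to 3′ with the match in capitals.
Socs3: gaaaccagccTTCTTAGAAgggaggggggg
The match describes the sequence of the window, and binding was not measured in these samples.

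Bcl3 encodes a nuclear IκB family protein and is a STAT3 target in mESCs. It lies at chr7:19808462-19822770 on the minus strand and overlaps Gm16175 on the opposite strand by 161 of 2485 exon bases; that gene had a mean of at most 0.445 RPM on days 0, 3, 4 and 8. Bcl3 was at 27.4, 17.0, 6.62 and 15.1 RPKM on day 0. It was not called higher with Socs3 during weaning, and on day 3 it was at 14.8, 8.54, 14.4 and 8.83 RPKM, a difference from day 0 of -0.38 (SE 0.43, limma adjusted p = 0.598). On day 4 it was at 1.08, 1.04, 1.36 and 2.03 RPKM, from 4 to 9 reads a library. The step was -3.08 (SE 0.43, 8.47-fold, adjusted p = 8.9e-06), without overlap. Bcl3 was still called lower than day 0 at the end, and every library of day 8 lay below every library of day 0: day 8 had 3.76, 5.47, 4.20 and 3.83 RPKM, at -1.78 (SE 0.43, 3.44-fold, adjusted p = 9.9e-04). Within the later days it rose from day 4 to day 8 by 1.68 (SE 0.43, adjusted p = 0.00258). In the order of the means, day 3 (11.6 ± 3.40 RPKM) stood above day 8 (4.32 ± 0.796) and day 7 (3.49 ± 1.44) above day 6 (1.70 ± 0.961) by more than the larger SD, and no other neighbours did.

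Junb encodes an AP-1 subunit that is induced early after many stimuli, LIF included. It lies at chr8:84976909-84978748 on the minus strand and its row overlaps no exon of another gene. It was the lowest of the 7 genes on day 0, at 4.27, 1.51, 0.503 and 1.39 RPKM, from 17, 6, 0 and 3 reads. The third value stands for no read, which the deposited table writes as 0.9 read. On day 3 Junb was at 6.88, 4.10, 5.01 and 3.45 RPKM and on day 4 at 2.56, 5.27, 3.06 and 3.35 RPKM, overlapping, with a step of -0.45 (SE 0.44, limma adjusted p = 0.775). Junb was called higher than day 0 on day 3 already, by 1.69 (SE 0.44, 3.22-fold, adjusted p = 0.011). By the labels as given it was higher in 4 of 4 replicates, but day 3 X14 single (4.10 RPKM) lay below day 0 X14 double (4.27 RPKM). The day 3 call was lost without replicate 2, 3 or 4 of every day (adjusted p of 0.057, 0.22 and 0.056) and in the fit of only the 2 days (0.14). A further rise came on the later days. Day 5 had 4.24, 5.81, 4.07 and 6.23 RPKM and day 6 had 8.60, 16.8, 11.3 and 10.8 RPKM, with no overlap between them. This step was 1.20 (SE 0.44, 2.30-fold, adjusted p = 0.0651), and with the replicate number as a block the adjusted p was 0.045. On day 8 Junb was at 27.9, 15.8, 20.8 and 13.6 RPKM, above every library of day 0, with a difference of 3.69 (SE 0.44, 12.9-fold, adjusted p = 3.0e-08). The day 8 mean of 19.5 ± 6.36 RPKM was followed by day 7 (14.6 ± 3.51) and day 6 (11.9 ± 3.48) without a gap beyond the spread, and day 6 stood clear of day 5 (5.09 ± 1.09).

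**Figure D2:**
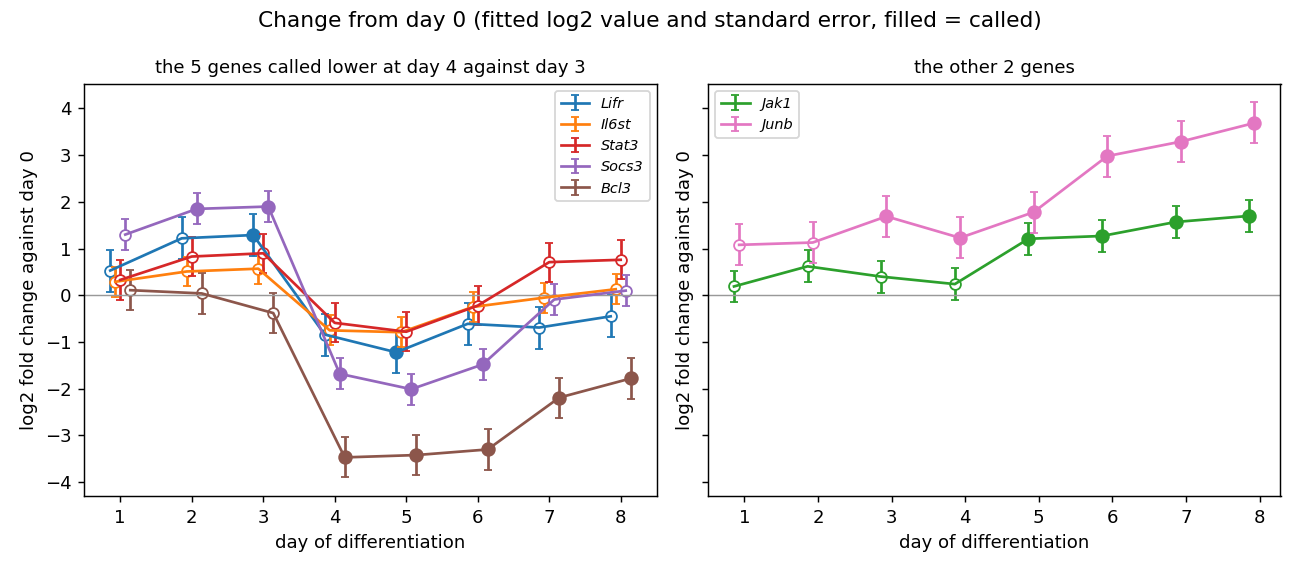
Fitted log2 fold change against day 0 (vertical axis) on days 1 to 8 with its standard error, for the 5 genes that fell between day 3 and day 4 (left) and for Jak1 and Junb (right). Filled points passed the test (adjusted p under 0.05 and at least 2-fold). Bcl3 is at -3.47 on day 4 and -1.78 on day 8, Socs3 goes from 1.90 on day 3 to -1.68 on day 4 and 0.10 on day 8, and Junb ends at 3.69.

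Set beside all genes, the step from day 3 to day 4 gave 5 of the 7 genes called lower and 0 called higher, where 1.70% of the 14612 genes tested were called lower and 3.33% higher. The same 5 genes had day 4 libraries that lay entirely below the day 3 libraries, a pattern held by 7.22% of all genes. The median over the 7 genes was -1.49 on the log2 scale, and over all genes 0.05. Since the 7 genes were chosen with earlier results of these data known, these shares are a description only. No other daily step from day 1 to day 8 had more than 1 of the 7 called. Socs3 and Bcl3 kept the call under every alternative run, with -3.92 to -3.31 for Socs3 and -3.40 to -2.74 for Bcl3. The other 3 rested on 4 libraries a day: without replicate 2 of every day, Il6st and Stat3 had adjusted p of 0.066 and 0.21. Without replicate 3, Lifr, Il6st and Stat3 had 0.079, 0.083 and 0.066, and without replicate 4 Stat3 had 0.15. Their log2 differences stayed between -2.29 and -1.27 in every alternative.

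Against day 0, Socs3, Junb and Lifr were called higher on day 3 (5.72% of all genes were). Without the X14 day 0 libraries 6 of the 7 were called, all but Bcl3, in a fit where 24.9% of all genes were called in either direction instead of 8.89%. Leaving out replicate 2, 3 or 4 of every day left 1 of the 7 called, beside 4.93%, 3.06% and 3.02% of all genes, and leaving out replicate 1 gave 4, beside 20.2%. Without day 0 replicates 1 and 3, the libraries farthest from the day 0 mean, Socs3 and Junb were called and Lifr was not (adjusted p = 0.074). On day 2 Socs3 alone was called (2.09% of all genes were called higher), and without the X14 day 0 libraries 6 were. That count was 0 without replicate 4 of every day, 4 without replicate 1 and 2 without the shallowest library. The count over all genes moved as well: 2.96% were called in either direction with all libraries, 23.2% without the X14 day 0 libraries, 0.226% without replicate 4, 13.7% without replicate 1 and 4.14% without the shallowest library. On day 1 none of the 7 was called by limma, and 0.0684% of all genes were. Socs3 and Junb were higher on that day at an unadjusted limma p under 0.05, and without the X14 day 0 libraries both were called (5.61% of all genes), and without replicate 1 of every day 1 of the 7 was (0.965%).

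In the trough, Bcl3 and Socs3 were called lower than day 0 on days 4, 5 and 6, when 6.40%, 11.0% and 11.0% of all genes were, and Bcl3 alone on day 7 (11.6%). The Socs3 difference of day 6 was -0.91 without the X14 day 0 libraries, under the 2-fold minimum. Lifr joined them on day 5 with -1.22 (SE 0.45, limma adjusted p = 0.0308), a value that was -0.25 (adjusted p = 0.64) without replicate 1 of every day and -0.58 (adjusted p = 0.23) without the shallowest library, day 5 replicate 1. Junb was called higher than day 0 on every day from day 3 on and Jak1 from day 5 on, beside 12.2% of all genes on day 4 and 15.8%, 22.4% and 23.8% on days 5, 6 and 7. The Junb call of day 4 (1.23, SE 0.44, adjusted p = 0.0375) was lost without replicate 2, 3 or 4 of every day, with adjusted p of 0.21, 0.32 and 0.12. It was also lost with no filter (0.06), quantile normalization (0.96, adjusted p = 0.071), voom (0.074) and only the 2 days fitted (0.19). The Jak1 call of day 5 (1.21) was lost without replicate 3 (0.90, adjusted p = 0.12), without replicate 4 (0.81, adjusted p = 0.12) and with only the 2 days fitted (0.084). That of day 6 (1.27) was lost without replicate 3 (0.95, adjusted p = 0.092) and, being under 2-fold there, with quantile normalization (0.91).

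On day 8, Junb and Jak1 were called higher and Bcl3 lower than on day 0. All genes had 23.9% called higher and 11.1% lower, so the share of the 7 genes called lies near that of the table as a whole. The median of the 7 was 0.13 and that of all genes 0.23. Under quantile normalization the median of all genes moved to -0.09 and the calls from 3485 higher and 1629 lower to 2432 and 2393, with Junb, Jak1 and Bcl3 called as before and Lifr now called lower (-1.08, adjusted p = 0.044). Against day 4, 5 of the 7 were higher on day 8, namely Junb (2.46), Socs3 (1.78), Bcl3 (1.68), Jak1 (1.46) and Stat3 (1.35), where 15.7% of all genes were called higher. All 5 had day 8 libraries above all day 4 libraries, as had 18.2% of all genes. That comparison was added after the data had been seen. Over the whole time course each of the 7 passed the F test for any difference from day 0, as did 65.2% of all genes.

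Fewer cells of a type and less RNA per cell cannot be told apart in bulk RNA. Markers of cell state moved at the same step. Of the 6 markers of pluripotent cells, Nanog and Esrrb were called lower between day 3 and day 4. Nanog went from 868 ± 498 to 130 ± 97.0 RPM and Esrrb from 369 ± 21.9 to 39.6 ± 18.9 RPM. Pou5f1 was at 1290 ± 70.5 and 1210 ± 122 RPM on these days. Of the 4 markers of the primed state, Fgf5, Otx2 and Pou3f1 were called higher, and the 4 summed to 528 to 1270 RPM on day 3 and 1650 to 3400 RPM on day 4. The epithelial keratins Krt8 and Krt18 were called higher as well, and the 6 markers of trophoblast and epithelium summed to 3.33 to 13.2 RPM on day 3 and 73.4 to 102 RPM on day 4, with Cdx2 and Elf5 without a read on both days. Endoderm, fibroblast, and blood and endothelium markers gave no call at this step, and of the immediate early genes Egr1 was called higher. The part of these changes in the fall of the 5 genes was not tested.

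The later rise of Jak1 and Junb ran alongside other lists. By day 8 the trophoblast and epithelium markers summed to 2230 to 4940 RPM (5.14 to 16.2 RPM on day 0), with 4 of 5 tested called higher. The 6 fibroblast and mesenchyme markers summed to 60.2 to 97.2 RPM, against at most 12.5 RPM on day 0, with 3 of 5 higher. Endoderm markers had 1 of 5 higher with Ttr and Apoa1 without a read on day 8, and blood and endothelium markers had 1 of 3 higher and 1 lower with Ptprc and Hbb-bh1 without a read. Of 8 immediate early genes, which respond to handling of cells as Junb does, 7 were tested. Fos, Jun, Atf3 and Egr1 were called higher and Ier2 lower, and the list summed to 177 to 282 RPM on day 8 and 110 to 167 RPM on day 0. The part of these genes in the rise of Junb and Jak1 was not tested.

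A list of 48 other genes of the pathway was followed by role, of which 47 have a row and 44 were tested. Between day 3 and day 4, 7 of the 44 were called lower and 0 higher (1.70% and 3.33% of all genes were), and their median was -0.17 (0.05 over all genes). On day 8 against day 0, 15 were higher and 9 lower, with a median of 0.58, where 23.9% of all genes were called higher and 11.1% lower and their median was 0.23.

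Among the ligands, Lif itself was scarce, at 5.45 ± 2.14 RPM on day 0 and 20.6 ± 12.6 RPM on day 8, a rise of 1.73 (SE 0.73, limma adjusted p = 0.0514). From day 4, with 3.42 ± 3.38 RPM, to day 8 it was called higher, by 3.16 (SE 0.73, adjusted p = 0.00103). Osm encodes oncostatin M, a close relative of LIF. It was at 9.96 ± 4.61 RPM on day 0 and 9.33 ± 5.93 RPM on day 3, and had 2 reads in the 4 libraries of day 4 and none on days 5 to 8. Against a floor of 3 reads over the 4 libraries, Osm was at least 22.2-fold lower on day 8 than on day 0. Il6 had no read in any library. Of the receptors, Osmr had no read on days 0 to 4 and 3 reads on day 8, and was not tested. Il6ra, which encodes the IL-6 receptor, lay at 1.70 ± 1.33 RPM on day 0 and 5.79 ± 8.01 RPM on day 8, near the limit of detection. Other partners of gp130 stood among the 3 largest rises of the list: Cntfr, the receptor of ciliary neurotrophic factor, went from 1.58 ± 1.87 to 24.9 ± 4.89 RPM (log2 4.22, SE 0.71, adjusted p = 1.0e-05), and Il11ra1 from 1 read in all to 10.6 ± 9.36 RPM.

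Among the kinases and STATs, Jak2 was called higher on day 8 than on day 0 (5.28 ± 4.51 and 29.2 ± 14.7 RPM, log2 2.74, SE 0.61, limma adjusted p = 4.6e-04). Jak3 and Stat4, named after their values were seen, were the only ones of the 9 called lower at the step to day 4, at -2.80 and -2.49. None of the 14 other inhibitors and phosphatases was called in either direction at the step where Socs3 fell 11.9-fold, and their median was 0.06. Ptpn6, named after its values were seen, went from 49.9 ± 4.42 to 26.7 ± 2.64 RPM. Its change of -0.90 (SE 0.27, adjusted p = 0.0376) was short of the 2-fold minimum. Socs1, another inhibitor of the Janus kinases, was at 1.98 ± 0.985 RPM on day 3 and 5.42 ± 1.30 RPM on day 4 (log2 1.56, SE 0.66, adjusted p = 0.204).

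The targets split. Klf4, Klf5, Tfcp2l1 and Pramel7, which all support self-renewal of mESCs, were called lower at the step to day 4, and the other 9 of the 13 tested were not called. Klf4 went from 129 ± 17.4 to 3.80 ± 2.39 RPM (log2 -5.35, SE 0.61, limma adjusted p = 2.0e-07) and Tfcp2l1 from 178 ± 62.5 to 28.9 ± 20.1 RPM (log2 -2.86, SE 0.56, adjusted p = 9.2e-04). Pramel7 went from 25.0 ± 27.0 RPM to 1 read in the 4 libraries. Gbx2 started at 19.0 ± 7.25 RPM, had 9.06 ± 2.54 and 9.16 ± 2.67 RPM on days 1 and 2, and was down from 132 reads in the day 3 libraries to 48 in those of day 4 and 2 in those of day 8. Its day 4 level was called lower than that of day 0 (log2 -1.48, SE 0.50, adjusted p = 0.0272), but not at the step from day 3 (-1.09, SE 0.50, adjusted p = 0.263). Pim1 and Pim3, kinase genes induced by STAT3, were not called in any of these comparisons. At the step to day 4 Pim1 rose from 95.6 ± 27.2 to 173 ± 7.2 RPM (log2 0.90, SE 0.26, adjusted p = 0.0327), short of the 2-fold minimum. Pim3 changed there by -0.50 (SE 0.18, adjusted p = 0.112). On days 0 and 8 Pim1 had 142 ± 55.2 and 124 ± 16.0 RPM, and Pim3 had 67.1 ± 19.6 and 115 ± 14.5 RPM. That Pim3 difference of 0.81 (SE 0.18, adjusted p = 4.3e-04) was under 2-fold as well. Myc showed the largest rise of the list, from 5 reads on day 0 to 39.8 ± 19.5 RPM on day 8 (adjusted p = 5.4e-07), and it was already called higher on day 3.

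**Figure D3:**
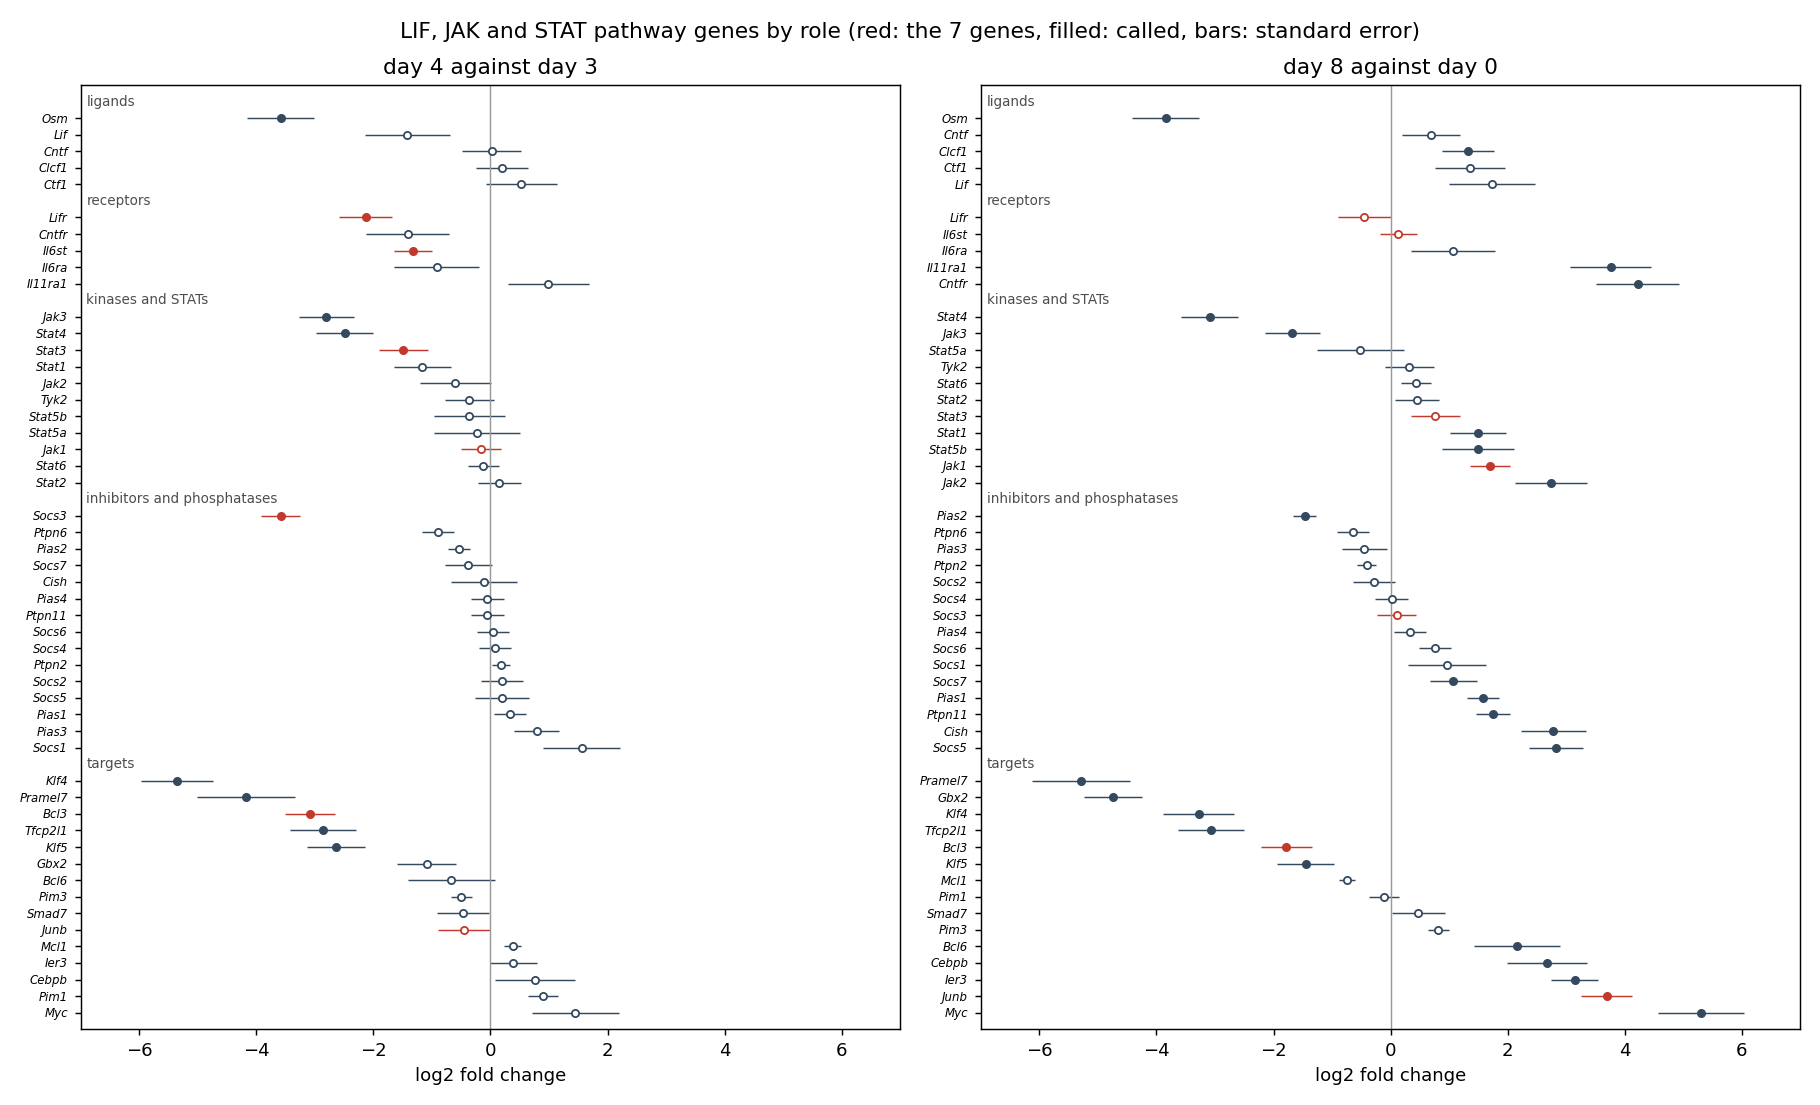
Log2 fold change with its standard error (horizontal axis) of the tested pathway genes, grouped by role, for day 4 against day 3 (left) and day 8 against day 0 (right). Red marks the 7 genes and dark grey the other pathway genes, and filled points passed the test. On the left the called genes all lie below 0, and on the right they lie on both sides, from Pramel7 at -5.29 to Myc at 5.30.

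The course over the 36 libraries was compared between genes by Pearson's r of the log2 values, as a description, since the points share libraries and days. Socs3 and Bcl3 ran most alike among the 7 (r = 0.857), followed by Junb and Jak1 (0.834) and Lifr and Socs3 (0.792). Bcl3 and Junb had the lowest value, -0.343. The search took in 9402 tested genes whose mean reached 10 RPM. The 3 most like Lifr were Klf5 (0.902), Esyt1 (0.897) and Fblim1 (0.896), and the 3 most like Bcl3 were Notum (0.9), Jak3 (0.894) and Klf4 (0.879). For Socs3 they were Slc29a1 (0.880), Erf (0.859) and Bcl3. For Il6st they were Mov10 (0.911), Mtmr12 (0.849) and Xrn2 (0.830), and for Stat3 Lamc1 (0.864), Sulf2 (0.850) and Cic (0.843). Junb was nearest to Kremen1 (0.924), B4galt1 (0.914) and Myo18a (0.908), and Jak1 to Sidt2 (0.943), Iqsec1 (0.932) and Osbp (0.932).

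By label, none of the 7 was called between the 18 libraries named double and the 18 named single, with day and line in the model, where limma called 2.99% of all genes. Without the minimum fold change, 1 of the 7 passed, as did 15.7% of all genes. That gene was Il6st, at a mean of 3.35 in double and 2.96 in single on the log2 RPKM scale, a difference of 0.39 (SE 0.12, 1.31-fold, adjusted p = 0.0223). Il6st was higher in double on 7 of 9 days in X14 and on 8 of 9 days in X18. The difference was 0.41 (adjusted p = 0.00561) without the X14 day 0 libraries, and in each line on its own it was 0.33 in X14 (adjusted p = 0.323) and 0.45 in X18 (adjusted p = 0.0806). The unadjusted limma p was under 0.05 for Il6st and Bcl3 only. Bcl3 was lower in double by -0.41 (SE 0.19, adjusted p = 0.15) and Lifr by -0.39 (SE 0.20, adjusted p = 0.2), and the other 4 lay between -0.21 and 0.14. Whether the label difference changed between days 1 to 4 and days 5 to 8 was tested as an interaction, where 4.07% of all genes were called, and none of the 7 passed (Bcl3 and Il6st had an unadjusted limma p under 0.05). Bcl3 came nearest, with -1.0 (SE 0.34, adjusted p = 0.0778). Of the 44 tested genes of the pathway list, 3 were called higher in double and 0 lower, where 2.05% of all genes were called higher. They were Lif (1.31, SE 0.24, limma adjusted p = 3.3e-04), Il6ra and Pramel7. Il6ra lay near the limit of detection. Pramel7 had at most 1 read in all on each of days 4 to 8.

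By line, none of the 7 was called between X18 and X14, where 2 of all genes (0.0137%) were, and Il6st and Junb had an unadjusted limma p under 0.05. Il6st had the lowest p, with a mean of 2.95 in X18 and 3.36 in X14 (difference -0.41, SE 0.12, limma adjusted p = 0.176), and without day 0 the difference was -0.31 (adjusted p = 0.439). Whether the line difference changed between the early and late days was tested in the same way, and limma called 0 of the 14612 genes (0.00%), as did voom, with 0 of the 7 at an unadjusted p under 0.05. Socs3 came nearest, with -0.47 (SE 0.23, adjusted p = 0.997). The fall of the 5 genes between day 3 and day 4 was present in both libraries of both lines.

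**Figure D4:**
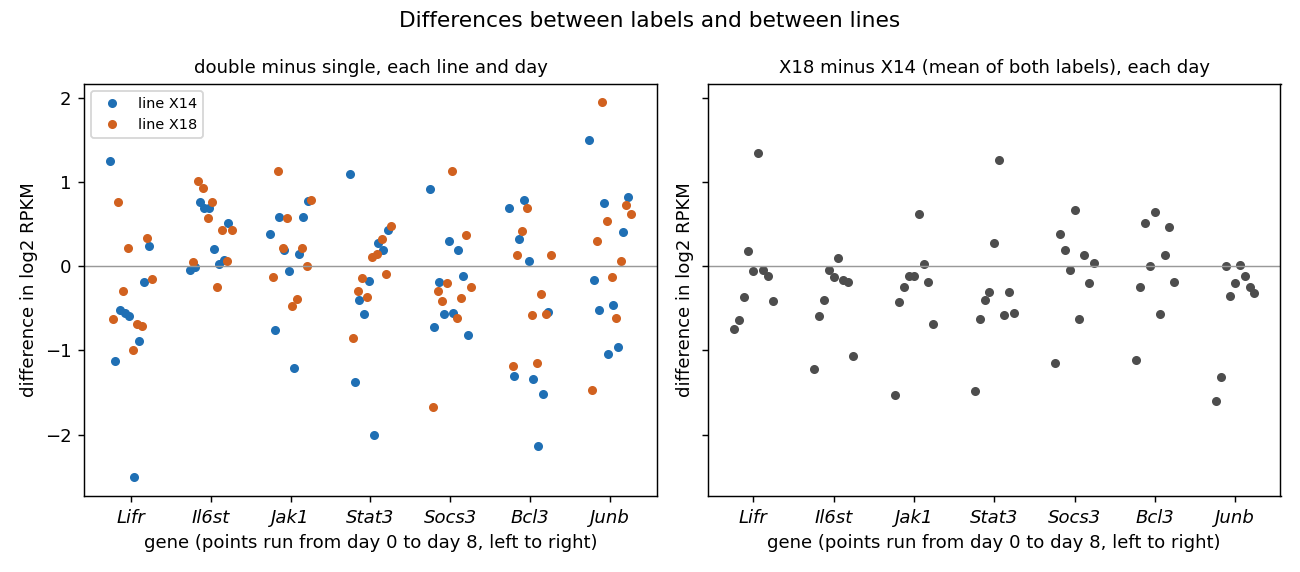
Difference in log2 RPKM between double and single within each line and day (left, blue X14 and orange X18) and between X18 and X14 on each day (right), with days 0 to 8 running from left to right for each gene. Il6st lies at or above 0 in most points on the left, and the points of the other genes lie on both sides of 0.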

How the data were processed

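RNA-seq was done by the authors on 36 libraries of 2 Xmas mESC lines. Per the study's methods, single-end reads went through trim_galore, then tophat (TopHat2 2.0.12 in the submitters' processing notes) or hisat2 for alignment to mm10, and SeqMonk for quantitation. The version of the annotation and the use of strand are not given in the sources used here. The authors deposited log2 values named log CPM, but their lowest steps differ between genes by exon length, so they are log2 RPKM. With 0.9 read standing for no read, 100% of the values came out as whole reads, within 0.02 of a read, and depth, RPM and floors come from these reads. Floors cover counting error only. All 36 columns were mapped, and 0 were left over.

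Genes with at least 1 RPM in at least 4 libraries were tested on the deposited log2 values by lmFit and trended eBayes of limma 3.58.1 (R 4.3.3), in 1 fit of all 36 libraries with day as the factor. Labels and lines were compared with day and the other term as covariates. A call needs a Benjamini-Hochberg adjusted p under 0.05 over all genes tested and a log2 change of at least 1, two-sided. Zero-read values enter as 0.9 read, so fold changes of genes with few reads are understated. The fit was tested on simulated data, with changes set in genes whose mean reached 10 RPM. For day 4 against day 3, it recovered 42.6% of log2 changes of 1.5, 76.5% of 2.0 and 100% of 3.0. A gene that was not called may therefore still have changed.

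The 7 genes, the pathway list and the marker lists were chosen with earlier results of these data known. Named besides the 7 are the 3 largest rises and falls of the pathway list on day 8 against day 0, 13 pathway genes set in advance of these fits, and for each of the 7 the 3 genes with the highest r. Among the pathway genes, Jak3, Stat4 and Ptpn6 were named after their values were seen. Same-numbered replicates share line and label, so the replicate number was taken as a block in an alternative fit, while printed p-values are from the fit without it unless the block is named. Their deviations from the day means had a median correlation of 0.146 (lowest -0.578), against -0.0676 for other pairs. The comparison of day 8 with day 4, and fits without the X14 day 0 libraries or without day 0 replicates 1 and 3, were added after seeing the data. Promoter windows are from RefSeq (GRCm38.p6). Exon overlaps were read from GENCODE M21.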

Additional observations from a re-analysis of the deposited data

Results flagged for a closer look

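In a set of 4 libraries of a day, a library was looked at again where its gap to the nearest other was larger than Dixon's limit at 95%. Of 63 gene and day combinations over the 7 genes, 2 had such a library, and chance gives about 1 in 20. Il6st in day 1 replicate 4 was low at 6.42 RPKM, where the other libraries of that day were at 13.7, 13.8 and 13.0 RPKM. Stat3 in day 5 replicate 1 was low at 0.819 RPKM, from 6 reads in the shallowest library, where the others were at 3.28, 4.13 and 3.72 RPKM.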

How the results depend on the processing

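With the replicate block, the counts of called genes were the same in every comparison except day 6 against day 5, where 1 of the 7 (Junb, 1.20) was called instead of 0. Fitting only the 2 days compared gave 0 called on day 2, 1 on day 3 and 3 on day 5 against day 0, and 1 on day 6 against day 5. For day 5 against day 4, 1 was called with no minimum fold change, with 75th percentile scaling, with quantile normalization, with voom and without the shallowest library, instead of 0. Voom gave 0 for day 7 against day 6, and the shallowest library left out gave 2 on day 2 against day 0. With no minimum fold change 1 was called for double against single. Without the X14 day 0 libraries 2 were called on day 1, 6 on day 2 and 6 on day 3 against day 0, and 1 on day 6 against day 5, which was also 1 without day 0 replicates 1 and 3. Leaving out each replicate number in turn gave 0 to 1 on day 1, 0 to 4 on day 2 and 1 to 4 on day 3 against day 0, 2 to 5 on day 4 against day 3, 0 to 1 on day 5 against day 4, and 0 to 1 on day 7 against day 6. The causes were not tested.

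Signs turned in 6 differences, none of which was called. Socs3 on day 8 against day 0 was -0.10 with 75th percentile scaling, -0.18 with quantile normalization, -0.01 with voom, -0.33 without replicate 3 (up to 0.59 when another replicate number was left out) and -0.09 without day 0 replicates 1 and 3. Il6st on day 8 was -0.07 and -0.20 under those 2 scalings. Bcl3 on day 3 against day 0 was 0.17 without the X14 day 0 libraries, and Jak1 on day 4 against day 3 was 0.01 without replicate 3, with -0.34 as the lowest value when another was left out. For double against single without day 0, Junb was -0.14 in X14 alone and Stat3 0.02 in X18 alone. Over single genes, 831 alternative values kept direction and call, 45 lost the call, 18 gained one and 11 changed sign. Depth limits Bcl3, Junb and Lifr most, with fewer than 20 reads in many libraries.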
